A study of Mus musculus with 6 samples.

Results

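The p53 pathway and the core machinery of apoptosis were examined in RNA-seq libraries of mouse corneal endothelium. The members were 35 genes, chosen by name for their role: p53 and its inhibitors, p53 target genes, the Bcl2 family, caspases with their activators, and the inhibitor of apoptosis proteins (IAPs). All 35 were found among the 57180 gene identifiers of the deposited tables. There were 6 libraries in 2 groups of 3, and both groups were homozygous for the Q455K allele of Col8a2, which models Fuchs dystrophy of the corneal endothelium. Col8a2 codes for a type VIII collagen chain of Descemet membrane, the sheet on which the endothelium rests. One group carried in addition, by its label, a heterozygous knockout of the transcription factor gene Tcf4 (Col8a2Q455K/Q455K/Tcf4+/-), and the other was the mutant alone (Col8a2Q455K/Q455K), with no treatment. Wild-type mice are not part of the comparison, so it asks what differs with the Tcf4 knockout label within the disease model. The labels used here do not give the age of the mice, how the Tcf4 allele was made, or whether corneas were pooled in a library. The p-values measure only the spread between these libraries, part of which may be technical.

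As background, p53 is a transcription factor that is kept low by Mdm2 and Mdm4 and accumulates after DNA damage and other stress. It then switches on genes that stop the cell cycle, such as Cdkn1a, and genes that push the cell toward apoptosis, such as Bax and Bbc3. In the mitochondrial route to apoptosis, BH3-only proteins neutralise the protective members Bcl2, Bcl2l1, Bcl2l2 and Mcl1 or activate the pore formers Bax and Bak1, cytochrome c leaves the mitochondrion, and Apaf1 activates caspase 9. IAPs hold caspases in check and are themselves blocked by Diablo. Corneal endothelial cells divide little in the adult, and their gradual loss, in which apoptosis has been described, is the hallmark of Fuchs dystrophy.

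Depth ranged from 30344161 to 54265479 estimated counts per library, with Tcf4+/- replicate 3 the shallowest. The level of Tcf4 in the libraries that carry its knockout label was not below that in the others, at 471 ± 116 CPM against 404 ± 81.7 CPM in the Col8a2 libraries (mean ± SD, n = 3 each; CPM are estimated counts scaled by TMM to a common depth). Its log2 fold change was 0.22 with a 95% interval from -0.52 to 0.96, so that a 2-fold decrease lay outside it, and -0.07 on the TPM scale. The groups are therefore named here by their labels only, and every direction given below rests on those labels. Whether transcripts of the targeted allele are still counted is not known from these tables. All 14 corneal endothelium markers were detected, with summed levels of 12500 to 22900 CPM in the libraries labelled Tcf4+/- and 15300 to 22800 CPM in the Col8a2 libraries. Markers of neighbouring tissues were present too, and not every list looked at is given here. Keratocyte and stroma markers (8 of 8 detected) summed to 8350, 17300 and 10300 CPM in the libraries labelled Tcf4+/- (replicates 1, 2 and 3). In the Col8a2 libraries they summed to 11300, 8950 and 5420 CPM. Melanocyte and trabecular meshwork markers were also detected in all 6 libraries. Lens markers, of which 1 of 15 was at 0 throughout, summed to 91.6, 4200 and 11200 CPM in the libraries labelled Tcf4+/- (replicates 1, 2 and 3) and to 628, 33.9 and 287 CPM in the Col8a2 libraries, led by Cryaa and Crybb2. Corneal epithelium markers (10 of 10 detected) ranged from 5140 to 11700 CPM in the libraries labelled Tcf4+/- and from 6020 to 13000 CPM in the Col8a2 libraries. Erythroid markers (5 of 5 detected) summed to 6130, 1360 and 2940 CPM in the libraries labelled Tcf4+/- and to 1300, 531 and 1970 CPM in the Col8a2 libraries. The 35 genes are expressed in many cell types, so the part of other tissues in their levels was not tested. In bulk RNA fewer cells of a type and less RNA per cell cannot be told apart.

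The 35 genes covered a wide range of levels, and the genes that execute apoptosis were well expressed while most BH3-only genes were scarce. Levels of different genes were compared per length, as TMM-scaled CPM per kb of effective length (CPM per kb). Cycs, which encodes cytochrome c, was the highest at 110 ± 28.0 CPM per kb in the libraries labelled Tcf4+/- and 93.7 ± 14.4 CPM per kb in the Col8a2 libraries (mean ± SD, n = 3 each). Next came Bax, at 80.6 ± 5.16 and 110 ± 35.7 CPM per kb in the same order of groups, and Bad, at 78.2 ± 16.8 and 73.0 ± 3.15 CPM per kb. Cdkn1a, the p53-induced inhibitor of cyclin-dependent kinases, averaged 48.2 ± 17.7 CPM per kb in the libraries labelled Tcf4+/- and 73.8 ± 19.2 CPM per kb in the Col8a2 libraries, well above Trp53 itself at 19.1 ± 7.36 and 21.6 ± 2.84 CPM per kb. At the low end stood Trp53inp1, Bmf and Pmaip1, with means over the 6 libraries of 1.77, 0.778 and 0.506 CPM per kb. Hrk, a BH3-only gene best known from neurons, had 0 counts in all 6 libraries, where a floor of 3 counts corresponds to 0.055 to 0.099 CPM of the library total. In the order of mean level over the 6 libraries, the ranges of neighbouring genes overlapped everywhere except between Mcl1 and Ccng1, which stood at 36.1 and 23.0 CPM per kb.

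**Figure D1:**
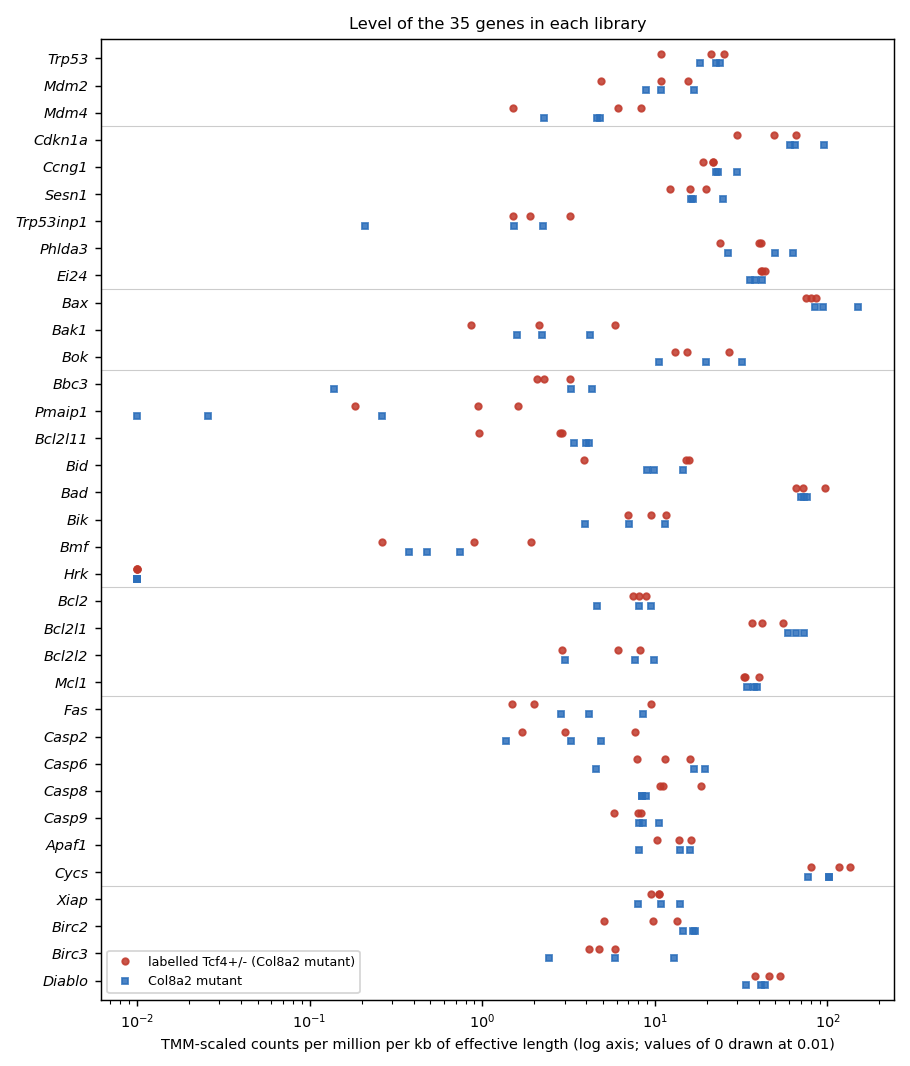
Level of each of the 35 genes in TMM-scaled CPM per kb of effective length (log axis) in the 3 libraries labelled Tcf4+/- (red circles, upper row of each gene) and the 3 Col8a2 libraries (blue squares, lower row). Cycs, Bax and Bad stand highest, and Hrk, at 0 counts in all 6 libraries, is drawn at 0.01.

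No gene of the set differed between the groups by the test. Of the 35 members, 34 passed the filter on low counts and were tested, and 0 were called higher and 0 lower by edgeR's quasi-likelihood test at a Benjamini-Hochberg adjusted p of 0.05 over all 17639 genes tested (all members had an adjusted p of 0.99988). The share of all genes called was 0% in each direction. At an unadjusted p under 0.05 there were also 0 members, against 2.42% of all genes (1.42% higher and 1% lower). DESeq2 called 0 members as well, with 1 member, Bcl2l11, at an unadjusted p under 0.05, while it called 0.132% of all genes higher and 0.0572% lower. The median log2 fold change was -0.03 over the 34 members tested and 0.00 over all genes tested, and 16 members were fitted higher and 18 lower. For 10 members the 95% interval of the log2 fold change lay within -1 and 1, so that a 2-fold change in either direction lay outside it. These were Trp53, Ccng1, Sesn1, Ei24, Bad, Bcl2, Mcl1, Cycs, Xiap and Diablo. For the other members tested the interval takes in a 2-fold change in at least 1 direction, so these libraries do not settle a difference of that size.

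**Figure D2:**
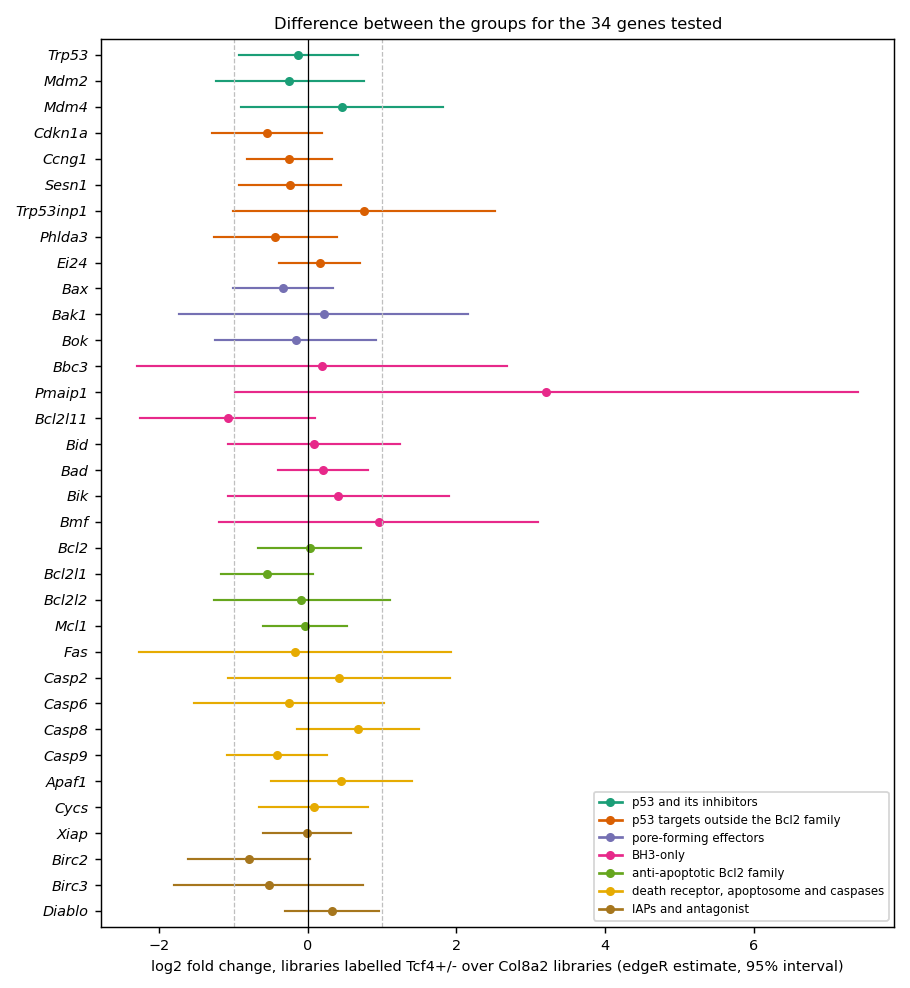
Log2 fold change of the 34 genes tested, libraries labelled Tcf4+/- over Col8a2 libraries, as the edgeR estimate (point) with its 95% interval (line), coloured by class; dashed lines mark a 2-fold change. All intervals take in 0, and that of Pmaip1, from -0.98 to 7.41, is the widest.

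Trp53 and its inhibitors did not differ beyond their spread. Trp53 stood at 39.0, 35 and 18.2 CPM in the libraries labelled Tcf4+/- (replicates 1, 2 and 3) and at 37.9, 29.0 and 34 CPM in the Col8a2 libraries. Tcf4+/- replicate 3 was the lowest of the 6 and the other 5 lay close together, so the groups overlapped. The log2 fold change of Trp53 was -0.13 with a standard error of 0.36. Mdm2, the ubiquitin ligase that targets p53 and is itself a p53 target, stood at 39.6, 29.3 and 13.5 CPM in the libraries labelled Tcf4+/- and at 45.8, 29.2 and 22.9 CPM in the Col8a2 libraries. Here too Tcf4+/- replicate 3 was lowest, and Mdm2 varied 3.39-fold between the highest and lowest library (log2 fold change -0.25, standard error 0.44). Mdm4, the relative of Mdm2 that binds and blocks p53, ran from 8.34 CPM in Tcf4+/- replicate 3 to 49.9 CPM in Tcf4+/- replicate 2, both in the group labelled Tcf4+/-, and its log2 fold change of 0.46 had a standard error of 0.61 and ran from 0.02 without Tcf4+/- replicate 2 to 0.91 without Tcf4+/- replicate 3. Tcf4+/- replicate 3 also had the lowest summed corneal endothelium markers, at 12500 CPM.

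Among p53 targets outside the Bcl2 family, Cdkn1a had the largest fitted decrease, and it did not pass. Cdkn1a stood at 72.4, 44.0 and 93.2 CPM in the libraries labelled Tcf4+/- and at 127, 89.2 and 89.9 CPM in the Col8a2 libraries. Tcf4+/- replicate 3 lay above Col8a2 replicates 2 and 3, so the groups overlapped by that library alone in CPM, and they did not overlap in TPM. The log2 fold change was -0.55 with a standard error of 0.33 and an interval from -1.29 to 0.19 (unadjusted p = 0.129). It was -0.85 by limma on log2(TPM + 0.1), with an unadjusted p of 0.0244, where the median of all genes lay at -0.18. Without Tcf4+/- replicate 2 it was -0.29 and without Col8a2 replicate 1 it was -0.36, and the smallest adjusted p over the alternatives was 0.774. Phlda3, a p53-induced antagonist of Akt, stood at 49.3, 30.5 and 44.9 CPM in the libraries labelled Tcf4+/- and at 77.6, 60 and 31.8 CPM in the Col8a2 libraries. Cdkn1a, Phlda3 and Mdm2 were thus all highest in Col8a2 replicate 1, and Cdkn1a and Phlda3 were lowest in Tcf4+/- replicate 2. Sesn1, a stress-induced regulator of mTORC1 signalling, had a log2 fold change of -0.24 with a standard error of 0.31. Trp53inp1, which promotes p53 phosphorylation, stood at 11.6 ± 4.85 CPM in the libraries labelled Tcf4+/- and 6.84 ± 5.34 CPM in the Col8a2 libraries (mean ± SD, n = 3 each).

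Ccng1 and Ei24 were the steadier targets. Ccng1, a cyclin G gene that responds to p53, stood at 71.0, 64.0 and 73.2 CPM in the libraries labelled Tcf4+/- and at 76.2, 97.7 and 73.6 CPM in the Col8a2 libraries. The groups did not overlap, by a margin of less than 1 CPM between Tcf4+/- replicate 3 and Col8a2 replicate 3. Ei24, induced by p53 and known for a role in autophagy, stood at 82.3, 83.0 and 82.9 CPM in the libraries labelled Tcf4+/- and at 81.1, 67.5 and 73.7 CPM in the Col8a2 libraries. These groups were apart by a small gap between Tcf4+/- replicate 1 and Col8a2 replicate 1, they overlapped per kb, and the sign of the Ei24 difference turned on the TPM scale, so no direction can be given for it. Their log2 fold changes were -0.25 and 0.16 with standard errors of 0.26 and 0.24.

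The promoter stretches that hold a p53 decamer, the motif of which p53 binding sites are built in pairs, are shown for Trp53 and its targets in this set, since these are the genes a change of p53 activity would be read from. They come from RefSeq windows of 250 bases before to 50 bases after a gene start (build GRCm38.p6, a different build from that of the count tables), read 5′ to 3′ on the strand of the gene, with the decamer in capitals.
Cdkn1a, chr17:29090886-29090957, plus strand: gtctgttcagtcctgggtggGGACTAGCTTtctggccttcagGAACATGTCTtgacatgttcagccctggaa
Mdm2, chr10:117710915-117710964, minus strand: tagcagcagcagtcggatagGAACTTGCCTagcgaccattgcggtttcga
Bax, chr7:45467070-45467119, minus strand: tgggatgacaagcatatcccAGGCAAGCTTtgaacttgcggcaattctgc
Ccng1, chr11:40755442-40755491, minus strand: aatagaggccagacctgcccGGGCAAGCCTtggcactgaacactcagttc
Sesn1, chr10:41887246-41887295, plus strand: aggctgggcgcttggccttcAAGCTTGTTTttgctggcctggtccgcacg
Ei24, chr9:36797335-36797364, minus strand: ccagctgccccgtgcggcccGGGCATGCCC
Trp53, chr11:69580264-69580313, plus strand: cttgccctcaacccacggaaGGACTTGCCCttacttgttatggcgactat

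The decamer reads the same on both strands and began 51 and 73 bases before the start of Cdkn1a, 186 before that of Mdm2, 201 before that of Bax, 185 before that of Ccng1, 173 before that of Sesn1, 10 before that of Ei24 and 75 before that of Trp53. Bmf and Birc2 had 1 decamer each as well, that of Birc2 after the start. Each distance is counted from the start of the window that held the decamer. Cdkn1a, Sesn1, Bmf and Birc2 also had windows at other starts, which held none. In all, 9 of 46 windows of the 32 members with a promoter entry held it (19.6%), against 8.36% of all 32851 windows, for a set that was in part chosen as p53 targets. The E-box CANNTG, the type of site E proteins such as Tcf4 bind, was present in 30 of the 46 windows (65.2%) and in 72.3% of all windows. Its form CAGCTG was present in 17.4% and 16.3%. Its form CACCTG was present in 5 of the 46 windows (10.9%) and in 20.2% of all windows, a difference that was not tested. Each of these motifs was searched on both strands, and CAGCTG and CACCTG are counted within CANNTG. Of the 9 genes with a decamer, Bmf and Ei24 were fitted higher and the other 7 lower, with log2 fold changes from -0.79 for Birc2 to 0.95 for Bmf and none past the test. The share fitted lower was 52.9% of the members tested and 49.9% of all genes tested. Whether p53 activity has a part in these directions was not tested.

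The pore formers were led by Bax, which made up most of their summed level. Bax stood at 48.6, 65.5 and 58.4 CPM in the libraries labelled Tcf4+/- and at 64.0, 98.4 and 55.0 CPM in the Col8a2 libraries. Col8a2 replicate 2 was the highest and the other 5 libraries were interleaved, and on the TPM scale the groups did not overlap (log2 fold change -0.33, standard error 0.30). Bok, a Bax relative that is regulated by protein degradation, was second at 23.0 ± 9.94 CPM in the libraries labelled Tcf4+/- and 25.7 ± 13.7 CPM in the Col8a2 libraries (mean ± SD, n = 3 each). Bak1, which like Bax forms pores in the outer mitochondrial membrane, was low and uneven, from 1.61 CPM in Tcf4+/- replicate 1 to 10.7 CPM in Tcf4+/- replicate 3. Bak1 shares exonic positions with Ggnbp1 on the opposite strand, and the library kit is not described as keeping the strand, so the counts of both are uncertain.

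BH3-only genes were dominated by Bad, and the one with the largest fitted decrease was Bcl2l11. Bcl2l11 encodes Bim, which binds all the protective family members. It stood at 9.95, 8.63 and 3.58 CPM in the libraries labelled Tcf4+/- and at 12.9, 18.5 and 15.7 CPM in the Col8a2 libraries. The groups did not overlap, with Tcf4+/- replicate 3 far below the rest. The log2 fold change was -1.08 with a standard error of 0.53 and an interval from -2.26 to 0.09 (unadjusted p = 0.0671). It was -0.76 without Tcf4+/- replicate 3, -0.76 with an offset for the effective length of each library, and -0.63 with the lens marker level as a covariate, all in the same direction, and its adjusted p ranged from 0.774 to 1 over the alternatives. Bad, which is held inactive by growth factor signalling through phosphorylation, stood at 61.0, 60.5 and 88.6 CPM in the libraries labelled Tcf4+/- and at 57.9, 60.6 and 63.8 CPM in the Col8a2 libraries. Only Tcf4+/- replicate 3 stood out, and without it the log2 fold change of Bad was -0.01 in place of 0.20. Bad shares exonic positions with Gpr137 on the opposite strand. Gpr137 had 1533, 2773 and 1294 counts in the libraries labelled Tcf4+/- and 2370, 2545 and 2892 in the Col8a2 libraries. The level of Bad, and the pro-apoptotic sums and ratios that include it, are therefore less certain.

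Pmaip1 had the largest fitted increase of the set, from very few counts. Pmaip1 encodes Noxa, a p53 target that binds Mcl1. It had 97, 202 and 13 counts in the libraries labelled Tcf4+/- and 0, 30 and 3 counts in the Col8a2 libraries, or 2.05, 3.67 and 0.439 CPM against 0.00, 0.606 and 0.0593 CPM. Tcf4+/- replicate 3 lay below Col8a2 replicate 2, so the groups overlapped. The fitted log2 fold change of 3.20 had a standard error of 1.87 and an interval from -0.98 to 7.41 (unadjusted p = 0.118), and it ranged from 1.09 to 6.81 over the alternatives. Bbc3, which encodes the p53 target Puma, stood at 2.25, 4.03 and 3.68 CPM in the libraries labelled Tcf4+/- and at 4.42, 4.12 and 0.217 CPM in the Col8a2 libraries, where replicate 3 was nearly devoid of it. Bid, which caspase 8 cleaves to link death receptors to mitochondria, had 23.6 ± 13.6 CPM in the libraries labelled Tcf4+/- and 22.4 ± 6.04 CPM in the Col8a2 libraries (mean ± SD, n = 3 each). Bid shares exonic positions with the more abundant Bcl2l13 on the opposite strand. Bik and Bmf had log2 fold changes of 0.41 and 0.95 with standard errors of 0.67 and 0.96.

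The protective members were led by Bcl2l1 and Mcl1, and the groups of Bcl2l1 were apart on each scale examined. Bcl2l1 encodes Bcl-x, and gene counts do not separate its long, protective form from its short, death-promoting form. It stood at 121, 81.2 and 84.6 CPM in the libraries labelled Tcf4+/- and at 154, 126 and 141 CPM in the Col8a2 libraries. All 3 libraries labelled Tcf4+/- lay below all 3 Col8a2 libraries, on the CPM, CPM per kb and TPM scales. The log2 fold change was -0.55 with a standard error of 0.28 and an interval from -1.17 to 0.07 (unadjusted p = 0.0742). It ranged from -0.79 to -0.22 over the alternatives, the smallest without Tcf4+/- replicates 2 and 3, the libraries of high lens marker level, where 1 library is left in the group. Mcl1, which encodes a short-lived protective protein, varied least between libraries in CPM among the protective genes. It stood at 104, 108 and 131 CPM in the libraries labelled Tcf4+/- and 125, 119 and 108 CPM in the Col8a2 libraries (log2 fold change -0.04, standard error 0.25). Its groups overlapped in CPM and did not overlap in TPM, where they were lower in the libraries labelled Tcf4+/-. Bcl2, the founding member, stood at 43.4, 43.4 and 54.2 CPM in the libraries labelled Tcf4+/- and 31.7, 59.0 and 47.7 CPM in the Col8a2 libraries (log2 fold change 0.03, standard error 0.31). Bcl2l2, which encodes Bcl-w, had 18.8 ± 9.78 CPM in the libraries labelled Tcf4+/- and 20 ± 8.72 CPM in the Col8a2 libraries (mean ± SD, n = 3 each).

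The balance of pro- to anti-apoptotic transcripts, taken from summed levels, differed by about the spread between libraries. The 11 pro-apoptotic genes of the Bcl2 family summed to 195, 199 and 230 CPM per kb in the libraries labelled Tcf4+/- and to 231, 257 and 208 CPM per kb in the Col8a2 libraries, ranges that overlapped. Bad and Bax together held 75.8 to 77.3% of that sum in the libraries labelled Tcf4+/- and 71.2 to 87.1% in the Col8a2 libraries. The 4 protective genes summed to 98.2, 84.1 and 99.0 CPM per kb in the libraries labelled Tcf4+/- and to 120, 116 and 116 CPM per kb in the Col8a2 libraries, which did not overlap. Without Bcl2l1 the protective sum was 43.1, 47.6 and 57.1 CPM per kb in the libraries labelled Tcf4+/- and 46.5, 56.7 and 49.9 CPM per kb in the Col8a2 libraries, which overlapped. Bcl2l1 made up 56.1, 43.4 and 42.3% of the protective sum in the libraries labelled Tcf4+/- and 61.2, 51.2 and 56.9% in the Col8a2 libraries.

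Both sums were on average lower in the libraries labelled Tcf4+/-, and the size of the difference in their ratio depended on how the genes were weighted. The ratio of the pro- to the anti-apoptotic sum was 1.98, 2.37 and 2.32 in the libraries labelled Tcf4+/- and 1.92, 2.21 and 1.80 in the Col8a2 libraries, or 2.22 ± 0.212 against 1.98 ± 0.211 (mean ± SD, n = 3 each). Tcf4+/- replicate 1 lay below Col8a2 replicate 2, so the groups overlapped, and the difference of 0.17 in the log2 ratio is close to the SD within the groups, 0.140 in the libraries labelled Tcf4+/- and 0.154 in the Col8a2 libraries. Without Tcf4+/- replicates 2 and 3, the difference was 0.01. It was 0.31 with Mcl1 left out and 0.58 as the difference of mean log2 levels, in which each gene counts alike and scarce genes such as Pmaip1 weigh as much as Bax. The direct ratio of Bax to Bcl2 in CPM per kb was 10.1, 10.6 and 9.03 in the libraries labelled Tcf4+/- and 20.4, 15.9 and 10.4 in the Col8a2 libraries, while that of Bax to Bcl2l1 was 1.37, 2.35 and 1.92 against 1.29, 2.54 and 1.28. The balance thus depends on which protective gene Bax is set against, and both ratios overlapped between the groups.

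**Figure D3:**
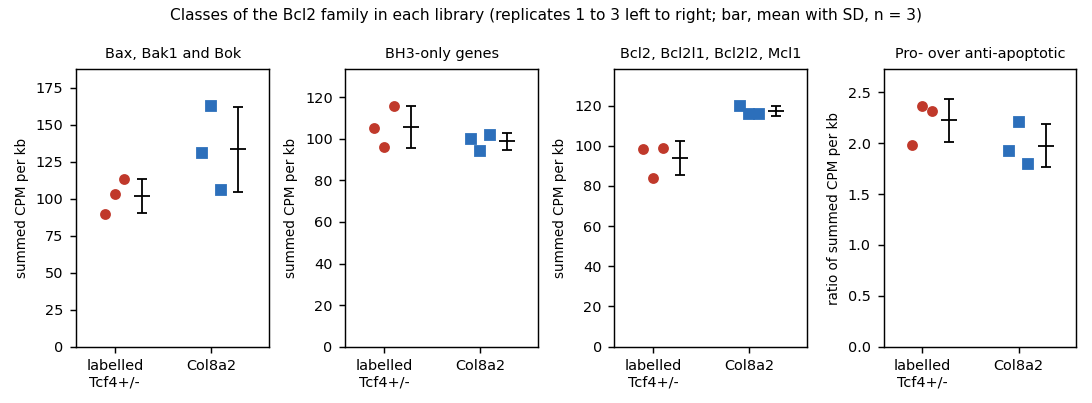
Summed level of the pore formers, of the BH3-only genes and of the protective genes in CPM per kb, and the ratio of the pro- to the anti-apoptotic sum, in each library labelled Tcf4+/- (red circles) and each Col8a2 library (blue squares), with the mean and SD of each group (n = 3). The protective sum is 84.1 to 99.0 in the libraries labelled Tcf4+/- and 116 to 120 in the Col8a2 libraries, and the ratio overlaps.

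Initiator caspases of the 2 routes were fitted in opposite directions, and neither passed. Casp8, the initiator downstream of death receptors, stood at 33.8, 19.8 and 20.4 CPM in the libraries labelled Tcf4+/- and at 16.1, 15.2 and 15.1 CPM in the Col8a2 libraries. The groups did not overlap, with Tcf4+/- replicate 1 well above the other 5 (log2 fold change 0.68, standard error 0.37, unadjusted p = 0.0976), and the difference was 0.38 without that library. On the TPM scale the Casp8 groups overlapped. Casp9, the initiator of the mitochondrial route, stood at 24.5, 23.9 and 21.8 CPM in the libraries labelled Tcf4+/- and at 29.9, 32.7 and 31.2 CPM in the Col8a2 libraries. Each of these groups was tight and they did not overlap in CPM, although they overlapped per kb (log2 fold change -0.42, standard error 0.30, unadjusted p = 0.193).

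The remaining genes of this class overlapped between the groups. Fas, a death receptor and p53 target, ran from 1.08 CPM in Tcf4+/- replicate 1 to 11.0 CPM in Tcf4+/- replicate 2, a 10.2-fold span within 1 group. Apaf1, the scaffold of the apoptosome, stood at 22.2, 14.2 and 11.9 CPM in the libraries labelled Tcf4+/- and at 11.0, 12.3 and 12.1 CPM in the Col8a2 libraries, with Tcf4+/- replicate 1, the library of highest erythroid marker level (6130 CPM), alone standing high, as it did for Casp8 and for Casp2 (25.3 CPM against 4.5 to 15.4 CPM in the other 5 libraries). For Apaf1 this held in CPM only. Its levels were 16.2, 13.8 and 10.3 CPM per kb in the libraries labelled Tcf4+/- and 15.9, 13.9 and 8.04 CPM per kb in the Col8a2 libraries. The log2 fold change of Apaf1 was 0.45, and 0.12 with an offset for effective length. Casp2, an initiator-type caspase, had a log2 fold change of 0.42 with a standard error of 0.67. Casp6, an executioner caspase, had 13.6 ± 4.85 CPM in the libraries labelled Tcf4+/- and 16.2 ± 9.45 CPM in the Col8a2 libraries (mean ± SD, n = 3 each). Cycs had a log2 fold change of 0.08 with a standard error of 0.33, and its processed pseudogenes make its counts less certain.

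Birc2 had the smallest p of the set. Birc2 encodes cIAP1, a ubiquitin ligase of tumour necrosis factor signalling. It stood at 26.9, 37.2 and 15.0 CPM in the libraries labelled Tcf4+/- and at 42.4, 46.1 and 48.0 CPM in the Col8a2 libraries. All 3 libraries labelled Tcf4+/- lay below all 3 Col8a2 libraries, on the CPM, CPM per kb and TPM scales, and Tcf4+/- replicate 3 was lowest. The log2 fold change was -0.79 with a standard error of 0.37 and an interval from -1.61 to 0.03 (unadjusted p = 0.0582). It was -0.51 without Tcf4+/- replicate 3, -0.69 with the lens marker level as a covariate and -0.85 with that of corneal endothelium, and the adjusted p ranged from 0.774 to 1 over the alternatives. Birc3, its close paralog that encodes cIAP2, stood at 10.3, 9.74 and 12.9 CPM in the libraries labelled Tcf4+/- and at 14.3, 5.90 and 27.4 CPM in the Col8a2 libraries, which overlapped. Xiap, the direct caspase inhibitor, was at 49.8 ± 2.21 CPM in the libraries labelled Tcf4+/- and 50.1 ± 7.56 CPM in the Col8a2 libraries (mean ± SD, n = 3 each; log2 fold change -0.01, standard error 0.26). Diablo, which encodes the IAP antagonist Smac, was at 61.0 ± 12.8 and 48.9 ± 7.06 CPM in the same order of groups (log2 fold change 0.32, standard error 0.28).

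In all, 7 of the 34 members tested had groups that did not overlap in CPM (20.6%), against 8.1% of all genes tested. Of the 7, Ccng1, Bcl2l11, Bcl2l1, Casp9 and Birc2 were lower in the libraries labelled Tcf4+/- (14.7% of members, against 3.57% of all genes) and Ei24 and Casp8 were higher (5.88%, against 4.53%). The members were chosen with earlier results of these data known and genes of a pathway are not independent, so the count is a description. It rests in part on small gaps, as for Ccng1 and Ei24 and, for its level, Bcl2l1. Per kb the groups of 5 of these genes stayed apart, all but Casp9 and Ei24. The share of all genes apart per kb is not given here, so that count has no background. On the TPM scale, looked at after the CPM values were known, 7 members were lower with no overlap (20.6%, against 6.53% of all genes), namely Cdkn1a, Ccng1, Bax, Bcl2l11, Bcl2l1, Mcl1 and Birc2. There 0 members were higher with no overlap, against 2.56% of all genes, and Ei24, Casp8 and Casp9 overlapped. The median of all genes lay at -0.16 on that scale with a pseudocount of 0.5. Ccng1, Bcl2l11, Bcl2l1 and Birc2 were thus lower without overlap on the CPM, CPM per kb and TPM scales. The share of all genes apart on each of these scales at once is not given, so this too is only a description.

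**Figure D4:**
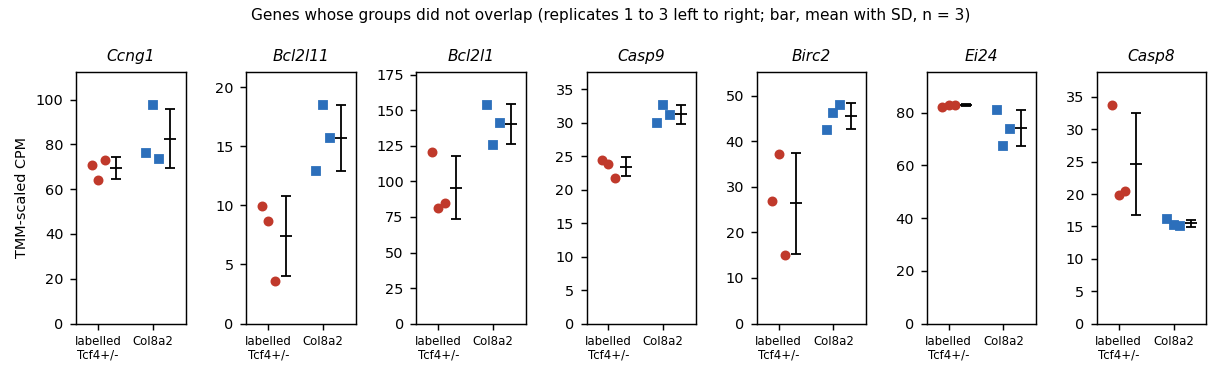
TMM-scaled CPM of the 7 genes whose groups did not overlap, in each library labelled Tcf4+/- (red circles, left) and each Col8a2 library (blue squares, right), with the mean and SD of each group (n = 3). The nearest values of the groups are 9.95 and 12.9 CPM for Bcl2l11, 24.5 and 29.9 CPM for Casp9 and 37.2 and 42.4 CPM for Birc2. For Bcl2l1 they are 121 and 126 CPM, a small gap for its level, and for Ccng1 and Ei24 the groups nearly touch.

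For many members the libraries of 1 group differed more than the group means did. Tcf4+/- replicate 3 was the lowest of the 6 libraries for 9 of the 34 members tested (Trp53, Mdm2, Mdm4, Sesn1, Bcl2l11, Bid, Bmf, Casp9 and Birc2) and the highest for 7 (Trp53inp1, Bak1, Bad, Bik, Bcl2l2, Mcl1 and Diablo). Over all genes tested this library was the lowest for 23.5% and the highest for 22.6%, so it also stood at the extremes for many genes outside the set. It was the library of lowest depth and lowest summed corneal endothelium markers and of highest summed lens markers. Like Col8a2 replicate 1, it had the male pattern of Xist (1.22 CPM here) and Ddx3y (34.2 CPM here). The median of length minus effective length over long genes was 241, 155 and 150 bases in the libraries labelled Tcf4+/-. It was 211, 234 and 234 bases in the Col8a2 libraries. The part of these features in the levels of Tcf4+/- replicate 3 was not tested. The median deviation of the members from their mean over the 6 libraries was 0.08, -0.02 and -0.04 on the log2 scale in the libraries labelled Tcf4+/- and 0.10, 0.05 and 0.11 in the Col8a2 libraries. Over all genes tested it was 0.08, 0.10 and 0.03 in the libraries labelled Tcf4+/- and 0.03, 0.07 and 0.05 in the Col8a2 libraries.

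**Figure D5:**
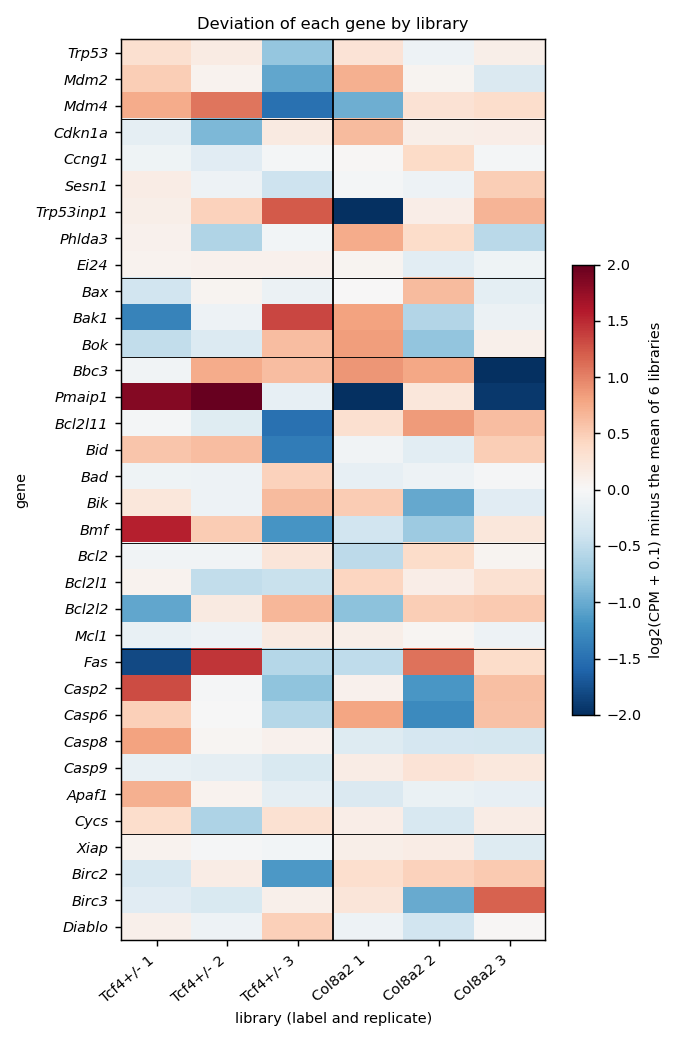
Deviation of each of the 34 genes tested from its mean over the 6 libraries, as log2(CPM + 0.1), with the libraries labelled Tcf4+/- left of the line and the Col8a2 libraries right of it; colours stop at -2 and 2. Tcf4+/- replicate 3 is the lowest library for 9 genes and the highest for 7, and Bbc3 and Trp53inp1 in the Col8a2 libraries and Fas in the libraries labelled Tcf4+/- have the largest swings within a group.

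Genes of the same pathways outside the set also gave no call. Of 50 further genes of the p53 network, 48 were tested and 0 were called higher and 0 lower by edgeR, with 19 fitted higher and 29 lower and a median log2 fold change of -0.04. Of 37 further genes of the death machinery, 34 were tested and 0 were called in either direction, with 12 fitted higher and 22 lower and a median of -0.13. The members of smallest p in the p53 network list were Sesn2, a stress-induced relative of Sesn1, at 7.22, 13.8 and 6.01 CPM in the libraries labelled Tcf4+/- and 21.2, 22.6 and 10.7 CPM in the Col8a2 libraries (log2 fold change -1.01, standard error 0.51), Pcna at 0.70 and Tnfrsf10b, a death receptor for TRAIL, at -0.94. In the death machinery list they were Htra2, a mitochondrial protease that also binds IAPs, at 24.8, 30 and 11.7 CPM in the libraries labelled Tcf4+/- and 32.9, 39.3 and 46.3 CPM in the Col8a2 libraries (log2 fold change -0.83, standard error 0.39), Casp12 at 1.41 and the tumour necrosis factor receptor gene Tnfrsf1a at -0.70. The groups of Htra2 did not overlap, and those of Sesn2, Pcna, Tnfrsf10b, Casp12 and Tnfrsf1a did. Of the 48 p53 network genes tested, 0 were higher and 1 was lower without overlap in CPM. Of the 34 death machinery genes tested, 1 was higher and 4 were lower without overlap. The shares of all genes tested were 4.53% higher and 3.57% lower.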

How the data were processed

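RNA came from the RNeasy Micro Kit and full-length cDNA libraries from the SMART-Seq HT and Nextera XT kits, per the labels' protocols. FastQC 0.12.1, fastp 0.23.2, STAR, RSEM, DESeq2 and build GRCm39 are named in the submitters' processing notes, without other versions or an annotation release. Expected counts, which the authors deposited per gene, are estimates before any depth scaling, with 9.97% of the values fractional. TPM, also deposited by the authors, correct for effective length, a further column per the file headers. Identifiers were paired with symbols through a GENCODE M21 table of another build (51884 of 57180 matched), used for names and for which genes overlap. Groups and replicate numbers came from the sample titles.

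Counts were rounded, filtered with filterByExpr (17639 genes left), scaled by TMM (factors 0.973 to 1.06) and tested with the quasi-likelihood test of edgeR 4.0.16 in R 4.3.3 (robust, group as the only term, Benjamini-Hochberg adjustment over all genes tested, threshold 0.05). Fits were checked on counts simulated with the means, depths and dispersions of these libraries. There 1.33% of 2-fold changes and 36% of 4-fold changes were called. For genes at 10 CPM or more it was 2.44% and 61.6%, so most 2-fold differences would be missed. The common coefficient of variation was 0.744, the standard errors of log2 fold changes had medians of 0.54 over all genes and 0.40 over the members tested. The smallest p of an exact permutation test with 3 against 3 is 0.1, so model p-values stand beside each library's value. Floors cover counting error only. Alternatives used DESeq2 1.42.0, limma 3.58.1, other scalings, filters and units, covariates and left-out libraries. Members and gene lists were chosen with earlier results of these data known. Values in every library were set for Trp53, Mdm2, Cdkn1a, Bax, Bcl2, Bcl2l1, Mcl1, Bcl2l11 and the 8 members of smallest p, and in each list of other pathway genes the 3 of smallest p were named; further values were chosen after they were seen. In each group 1 library had the male pattern of Xist and Ddx3y, so neither group comes from 1 animal. Every pair of libraries differed by more than sampling noise.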

Additional observations from a re-analysis of the deposited data

How the results depend on the processing

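No member was called under any of the 21 other settings. Of the 34 members tested, 13 kept the sign of their log2 fold change under all 21, among them Birc2, Bcl2l11, Bcl2l1, Casp8, Casp9, Ccng1 and Cdkn1a, and 2 more, Pmaip1 and Bmf, under the 20 in which they were tested. DESeq2 called 23 genes higher and 10 lower over all genes, and edgeR with 1 library left out gave 0 to 2 in each direction, with 2 and 2 without Col8a2 replicate 3. On the TPM scale with pseudocounts of 0.5 and 0.1 the median of all genes lay at -0.16 and -0.18 and that of the members at -0.25 and -0.28; there Tcf4 stood at -0.07 and -0.07, Ei24 at -0.06 and -0.06, Bak1 at -0.25 and -0.33, Bid at -0.32 and -0.35, Bad at -0.12 and -0.12, Bcl2 at -0.01 and 0.00 and Apaf1 at -0.07 and -0.07. The members' median was 0.03 with upper-quartile scaling, -0.09 with the endothelium marker level as a covariate and -0.04 to 0.06 with 1 library left out. Signs also turned for Bcl2l2 at 0.01, Mcl1 at 0.02 and Xiap at 0.04 (upper-quartile scaling), Bcl2 at -0.01 (library totals), Mcl1 at 0.00 and Xiap at 0.03 (mean of at least 5 CPM), Bak1 at -0.22, Casp6 at 0.00 and Xiap at 0.00 (limma voom), Bid at -0.15 (Xist and Ddx3y pattern) and -0.13 (endothelium level), and Trp53 at 0.02, Bak1 at -1.33 and Xiap at 0.08 (lens level).

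Without Tcf4+/- replicates 2 and 3 the difference in the log2 ratio of pro- to anti-apoptotic level was 0.01, and Trp53 stood at 0.20, Mdm2 at 0.27, Sesn1 at 0.00, Bak1 at -1.55, Bbc3 at -0.39, Bad at 0.00, Bcl2 at -0.09, Casp6 at 0.19 and Xiap at 0.05; the lone library of that group is assumed to vary like the others. With each gene weighted alike, as the mean log2 level per class, the difference in the ratio was 0.58, with the groups overlapping. With 1 library left out, signs turned within the ranges Trp53 -0.34 to 0.13, Mdm2 -0.61 to 0.08, Bak1 -0.77 to 0.71, Bok -0.58 to 0.31, Bbc3 -0.36 to 0.61, Bid -0.21 to 0.48, Bad -0.01 to 0.32, Bcl2 -0.19 to 0.25, Bcl2l2 -0.49 to 0.26, Mcl1 -0.16 to 0.02, Fas -1.55 to 0.31, Casp2 -0.37 to 0.85, Casp6 -0.66 to 0.09, Cycs -0.09 to 0.34, Xiap -0.13 to 0.06 and Birc3 -0.92 to 0.12. In 12 members whose sign never turned, leaving out 1 library still moved the value by over 1.5 times. Without Col8a2 replicate 1 Bik stood at 0.87, Cdkn1a at -0.36, Mdm4 at 0.14, Phlda3 at -0.15 and Trp53inp1 at 0.25, without Col8a2 replicate 2 Bax at -0.05, Bik at 0.10, Ccng1 at -0.11 and Pmaip1 at 5.98, and without Col8a2 replicate 3 Bax at -0.50, Phlda3 at -0.73 and Trp53inp1 at 1.37. Without Tcf4+/- replicate 1 Bmf stood at 0.15, Casp8 at 0.38 and Mdm4 at 0.30, without replicate 2 Cdkn1a at -0.29, Mdm4 at 0.02 and Phlda3 at -0.25, and without replicate 3 Bik at 0.19, Birc2 at -0.51, Diablo at 0.14, Mdm4 at 0.91 and Trp53inp1 at 0.37. The cause of these changes was not tested.

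Replicate numbers are shared by the groups, but the labels do not say that they mark a litter or day, and deviations of same-numbered libraries correlated at -0.02, 0.14 and -0.02, so they are not taken as pairs. With the replicate block 0 members were called, the median was -0.06 and Bid turned to -0.09.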
